A study of Mus musculus with 12 samples.

Results

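Lipid droplets are the stores of triglyceride and cholesteryl ester in the hepatocyte, and 10 genes that coat them, fuse them or break down their triglyceride were read in the livers of wild-type (WT) mice and of mice lacking Pctp, the gene of phosphatidylcholine transfer protein. The 10 genes were taken by symbol from a table of 35275 genes: Plin2, Plin3, Plin4 and Plin5 of the droplet coat, Cidea, Cideb and Cidec of droplet fusion, the lipases Pnpla2 and Pnpla3, and G0s2, a protein inhibitor of Pnpla2. All 10 were found in the table. Of these, 8 passed a filter of a mean of at least 0.5 FPKM over all libraries, a unit that scales the fragments of a gene by its length and by the depth of the library, and were tested, and Cidea and Pnpla3 lay below it.

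The liver RNA came from 4 groups of 3 mice, 1 library a mouse: WT mice on chow, Pctp-/- mice (KO) on chow, WT mice on a methionine and choline depleted (MCD) diet, and KO mice on the MCD diet. Methionine and choline are precursors of phosphatidylcholine, and the diet is used to induce steatosis and liver damage. The knockout was whole-body, not restricted to hepatocytes, and all animals of the study were male, while the strain, the age, the time on diet and the fasting state of these mice are not given in the sources used here. Pctp itself was listed at 1.21 to 2.65 FPKM in WT and 0.330 to 0.566 in KO on chow, and at 3.61 to 7.90 in WT and 0.156 to 0.329 in KO on the MCD diet, so that the groups did not overlap on either diet. By the limma test used below it was called between the genotypes on the MCD diet (log2 fold change -2.33, adjusted p = 0.000624) but not on chow (-1.07, adjusted p = 0.15).

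The libraries held 30486576 to 55179468 uniquely mapped reads, with a median of 40511582. In the MCD libraries 85.66 to 87.55% of reads mapped uniquely and 93.47 to 94.58% of bases had a quality score of at least Q30, against 77.59 to 79.41% and 86.29 to 87.1% in the chow libraries, without overlap. Diet and these measures cannot be told apart here, whereas the genotypes were compared at like mapping rates within each diet. Summed over its 5 genes, the hepatocyte list was the most abundant of the marker lists, at 39400 to 44390 FPKM on chow, 52150 to 59120 in WT on MCD and 66990 to 73210 in KO on MCD. Most of that sum was Alb, at 26290 to 29920 FPKM on chow, 41400 to 46340 in WT on MCD and 54600 to 61590 in KO on MCD, while 3 of the 5 markers fell with the diet in each genotype. In whole liver, fewer cells of a type and less RNA per cell cannot be told apart.

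As background, a lipid droplet is a core of neutral lipid under a single layer of phospholipid, on which proteins of the perilipin family sit and limit the access of lipases. CIDE proteins gather at the contact between droplets and pass lipid from the smaller to the larger one. Pnpla2, also called adipose triglyceride lipase, cuts the first fatty acid from triglyceride. The protein Abhd5 activates it and G0s2 blocks it, so that the coat, the inhibitor and the lipase are the usual points at which droplet breakdown is set. In liver, perilipin 2 is the main coat protein and its amount goes up with stored fat, and several of these genes are known targets of the PPAR nuclear receptors.

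The members were looked up among RefSeq promoter windows of build GRCm38.p6, each holding 250 bases before and 50 bases after a transcription start. Of the 10 genes, 9 matched, with 11 windows. The windows of 5 of them are shown as the sequences next to the starts that the results turn on: Plin2 as the most abundant member, Plin5 as the one whose diet effect was called in WT alone, Cidec and G0s2 as the members with the highest fold changes in WT, and Pnpla2 as the one that fell. They are written 5′ to 3′ on the strand of the gene, and capitals mark a match to one of the 4 motifs searched. The windows are chr4:86670010-86670309 on the minus strand for Plin2, chr17:56117499-56117798 on the minus strand for Plin5, chr6:113435711-113436010 on the minus strand for Cidec, chr1:193273139-193273438 on the minus strand for G0s2 and chr7:141454938-141455237 on the plus strand for Pnpla2.
Plin2: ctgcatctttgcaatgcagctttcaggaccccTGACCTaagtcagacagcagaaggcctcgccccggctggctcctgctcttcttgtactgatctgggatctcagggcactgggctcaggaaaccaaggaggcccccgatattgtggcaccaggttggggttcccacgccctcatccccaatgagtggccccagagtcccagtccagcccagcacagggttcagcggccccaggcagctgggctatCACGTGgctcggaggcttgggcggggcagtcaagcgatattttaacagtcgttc
Plin5: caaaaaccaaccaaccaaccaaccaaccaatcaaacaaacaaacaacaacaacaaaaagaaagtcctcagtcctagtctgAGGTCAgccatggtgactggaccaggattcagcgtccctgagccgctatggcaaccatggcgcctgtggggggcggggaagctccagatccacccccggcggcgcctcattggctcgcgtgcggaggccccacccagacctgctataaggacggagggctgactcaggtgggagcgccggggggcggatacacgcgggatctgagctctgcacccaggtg
Cidec: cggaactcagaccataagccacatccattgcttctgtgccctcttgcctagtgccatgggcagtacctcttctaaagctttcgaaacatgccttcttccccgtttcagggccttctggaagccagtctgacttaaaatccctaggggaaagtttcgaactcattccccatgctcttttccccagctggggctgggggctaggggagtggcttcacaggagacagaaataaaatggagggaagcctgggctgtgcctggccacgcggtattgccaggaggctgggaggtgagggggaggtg
G0s2: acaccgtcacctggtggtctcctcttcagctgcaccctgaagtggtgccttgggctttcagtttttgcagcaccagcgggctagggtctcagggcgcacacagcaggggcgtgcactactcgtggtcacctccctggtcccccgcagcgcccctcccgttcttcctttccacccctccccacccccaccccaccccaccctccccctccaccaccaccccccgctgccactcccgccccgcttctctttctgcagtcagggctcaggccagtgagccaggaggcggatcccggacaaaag
Pnpla2: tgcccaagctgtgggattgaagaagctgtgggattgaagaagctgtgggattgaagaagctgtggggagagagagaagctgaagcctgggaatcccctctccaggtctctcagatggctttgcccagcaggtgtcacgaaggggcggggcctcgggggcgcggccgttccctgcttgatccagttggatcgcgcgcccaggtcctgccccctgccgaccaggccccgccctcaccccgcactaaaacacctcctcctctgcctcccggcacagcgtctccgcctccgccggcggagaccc

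The motifs were searched on both strands. DR1, the direct repeat bound by PPAR and RXR, searched as AGGNCA and AGGNCA with 1 base between, was in 0 of the 11 windows and in 0.381% of the 32851 windows of all genes. The single site AGGTCA was in 3 windows of 2 members, Plin2 and Plin5, and in 16.3% of all windows. In Plin2 this site lay on the opposite strand at positions -218 to -213, with the start site counted as 0, and in the Plin5 window shown at -170 to -165. The E-box CACGTG was in 1 window, that of Plin2 at -4 to 1, against 7.15% of all windows, and TATAAA was in 1 window, that of Cideb, against 13.6%. These matches are descriptions of letters, and the lack of a match says only that those letters are not in the window. The GC content was 66.7% in the G0s2 window, 65.3% in that of Pnpla2, 60.7% in that of Plin2, 60.3% in that of Plin5 shown and 55.7% in that of Cidec shown, with 52.7% as the median of all windows.

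The first question was how the diet moved the droplet genes in each genotype. In WT liver 7 of the 8 tested members rose with the MCD diet and Pnpla2 fell. In KO liver 6 rose, Pnpla2 fell and Plin5 did not pass the test. The largest rises were those of Cidec, 10.3-fold in WT and 5.60-fold in KO, of G0s2, 5.52-fold and 2.47-fold, and of Plin4, 4.89-fold and 5.61-fold, as ratios of mean FPKM. The test was limma on log2(FPKM + 1) over all 12466 genes past the filter, with a gene called at a Benjamini-Hochberg adjusted p under 0.05, and log2 fold changes on this scale understate the change of low genes. A large share of the liver transcriptome differed between the MCD and chow libraries, since 57.0% of all tested genes were called in WT and 50.3% in KO. A count of called members is to be read against that share. In WT 34.5% of tested genes were called higher and 22.5% lower, and in KO 26.0% and 24.4%. The libraries of both diets did not overlap for 8 of the 8 members in WT and 7 of the 8 in KO, against 63.7% and 59.7% of all tested genes. The median log2 fold change of the 8 members was 1.02 in WT and 0.79 in KO, with 0.11 and 0.04 as the medians of all tested genes.

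**Figure D1:**
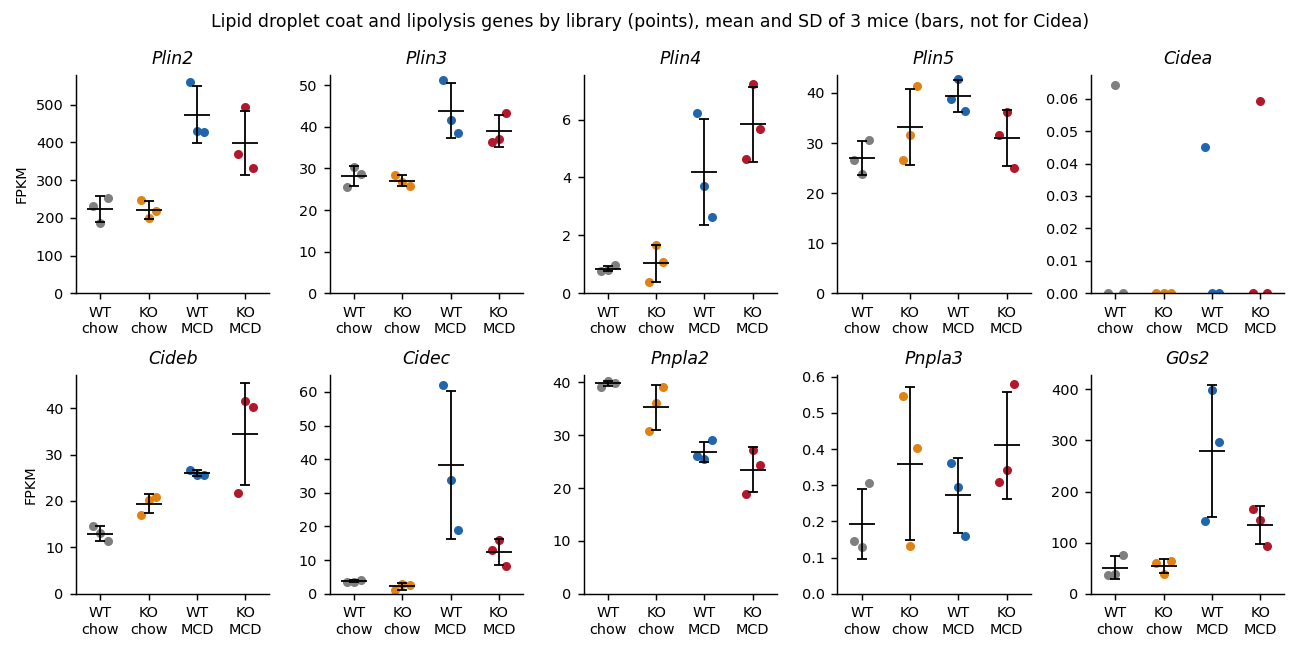
FPKM of the 10 genes (vertical axes, linear from 0, a scale of its own in each panel) in the 4 groups of 3 mice (horizontal axes), with a point for each library and bars for the mean and SD, which are left out for Cidea. Plin2, Plin3, Plin4, Cideb, Cidec and G0s2 lie higher and Pnpla2 lower in the MCD groups than in the chow groups, while Cidea lies at or next to 0 in every library.

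**Figure D2:**
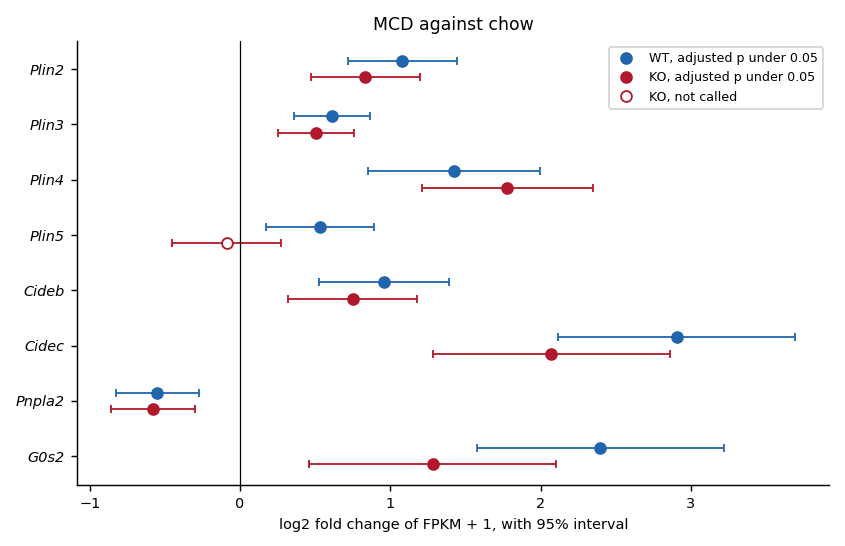
Log2 fold change of FPKM + 1 between the MCD diet and chow (horizontal axis) for the 8 tested members, in WT (blue) and KO (red), with 95% intervals. Filled points have an adjusted p under 0.05, and the only open point is Plin5 in KO, at -0.09.

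Plin2, the perilipin that covers most droplets of the hepatocyte, had the highest FPKM of the members in every library. The gene (ENSMUSG00000028494) lies at chr4:86648386-86670060 on the minus strand of GRCm38. Its FPKM was 232, 186 and 252 in WT on chow and 247, 199 and 217 in KO on chow. With the MCD diet it was 561, 431 and 428 in WT and 368, 495 and 333 in KO. Every MCD library stood above every chow library, and within a diet the genotypes overlapped. By mean FPKM the gene ranked 314th of the tested genes in WT on chow and 128th in WT on the MCD diet. The rise was 2.12-fold in WT (log2 fold change 1.08, SE 0.167, adjusted p = 0.000181) and 1.80-fold in KO (0.83, SE 0.167, adjusted p = 0.00138).

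Plin3, a perilipin that is soluble in the cytosol and moves onto young droplets, followed the same order of groups at a lower level. Its gene (ENSMUSG00000024197) lies at chr17:56277476-56292873 on the minus strand. The FPKM was 25.5, 30.4 and 28.7 in WT and 28.5, 26.8 and 25.8 in KO on chow. MCD livers had 51.3, 41.6 and 38.6 in WT and 36.4, 37.1 and 43.4 in KO, all above the chow libraries. The rise was 1.56-fold in WT (log2 fold change 0.61, SE 0.116, adjusted p = 0.000769) and 1.44-fold in KO (0.51, SE 0.116, adjusted p = 0.00325).

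Plin4, a perilipin known best from fat and muscle cells, was near the filter on chow and rose by a higher factor than the other perilipins. The gene (ENSMUSG00000002831) lies at chr17:56100591-56109803 on the minus strand, 1797 bases from Plin5, and overlaps Hdgfl2 on the other strand. Whether the counting used strand is not given in the sources used here, so reads of the overlap cannot be assigned with certainty. Its FPKM on chow was 0.789, 0.818 and 0.963 in WT and 0.380, 1.67 and 1.07 in KO. After MCD feeding it was 6.22, 3.72 and 2.62 in WT and 4.63, 7.21 and 5.66 in KO. The MCD and chow libraries did not overlap, and the KO libraries on chow spanned a 4.39-fold range. The log2 fold change was 1.42 in WT (SE 0.262, adjusted p = 0.000634) and 1.78 in KO (SE 0.262, adjusted p = 0.000162).

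Plin5, the perilipin of oxidative tissues that ties droplets to mitochondria and binds Pnpla2 and Abhd5, showed a diet effect that passed the test in WT alone. The gene (ENSMUSG00000011305) lies at chr17:56111601-56117596 on the minus strand. The FPKM on chow was 26.5, 23.8 and 30.6 in WT and 26.5, 31.6 and 41.4 in KO. On MCD it was 38.8, 42.7 and 36.4 in WT and 31.7, 36.3 and 25.02 in KO. The WT libraries of both diets did not overlap, while the KO libraries did. It rose 1.46-fold in WT (log2 fold change 0.53, SE 0.166, adjusted p = 0.0161), and in KO the log2 fold change was -0.09 (95% interval -0.45 to 0.27, adjusted p = 0.684). The call in WT was lost without WT chow replicate 2 (0.45, adjusted p = 0.066) or without WT MCD replicate 2 (0.47, adjusted p = 0.0572). The difference between both diet effects was -0.62 (95% interval -1.13 to -0.11, unadjusted p = 0.0215, adjusted p = 0.242) and did not pass the test.

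Summed over Plin2, Plin3, Plin4 and Plin5, the perilipin FPKM was 241 to 312 in the chow libraries and 407 to 657 in the MCD libraries. Plin2 made up 76.1 to 81.7% of that sum on chow and 81.8 to 86.0% on the MCD diet, and Plin5 made up 8.76 to 14.5% and 5.91 to 8.23%. The summed perilipin RNA was thus higher in every MCD library than in every chow library, with a larger part of it Plin2 and a smaller part Plin5. Protein on the droplets was not measured here. These shares were computed after the single genes had been seen and carry no test.

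Cidec, which is also called fat-specific protein 27 and promotes the growth of large droplets, had the highest fold change of the members in WT. Its gene (ENSMUSG00000030278) lies at chr6:113424634-113435760 on the minus strand. The FPKM on chow was 3.54, 3.48 and 4.12 in WT and 1.10, 3.01 and 2.53 in KO. Under MCD the values were 62.0, 33.9 and 18.9 in WT and 13.1, 15.9 and 8.26 in KO. No 2 groups overlapped, with the order WT on MCD, KO on MCD, WT on chow and KO on chow from the highest down, and WT on MCD was the most spread group, at 3.28-fold from lowest to highest. The log2 fold change with diet was 2.91 in WT (SE 0.363, adjusted p = 3.66e-05) and 2.07 in KO (SE 0.363, adjusted p = 0.000547).

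Cideb, the CIDE protein of normal hepatocytes with a role in loading lipid onto VLDL particles, had a higher mean FPKM than Cidec in all groups but WT on MCD. The gene (ENSMUSG00000022219) lies at chr14:55754050-55758458 on the minus strand and overlaps Nop9 on the other strand. The FPKM on chow was 14.6, 13.02 and 11.3 in WT and 17.0, 20.2 and 20.9 in KO. Fed MCD, the mice had 26.7, 25.7 and 25.6 in WT and 21.7, 41.5 and 40.2 in KO. The MCD libraries stood above the chow libraries of both genotypes, and KO on MCD was split between 1 library at 21.7 and the others at 40.2 and 41.5. The rise was 2.00-fold in WT (log2 fold change 0.96, SE 0.198, adjusted p = 0.00139) and 1.78-fold in KO (0.75, SE 0.198, adjusted p = 0.00749).

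Cidea, the CIDE protein of brown fat, was listed at 0 in 9 of the 12 libraries. Its 3 values above 0 were 0.0642 FPKM in a WT chow library, 0.0451 in a WT MCD library and 0.0591 in a KO MCD library. From the length of its exons and the depth, each of them corresponds to about 1 fragment (1.10 to 1.12), so the gene was not detectable at this depth in most livers and no group can be set against another. The gene (ENSMUSG00000024526) lies on chromosome 18 on the plus strand.

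Pnpla2, the lipase that starts triglyceride breakdown, was the member that fell. The gene (ENSMUSG00000025509) lies at chr7:141455198-141460743 on the plus strand. The FPKM on chow was 39.2, 40.2 and 40.0 in WT and 30.7, 36.1 and 39.0 in KO. The MCD values were 26.1, 25.5 and 29.0 in WT and 18.8, 27.2 and 24.3 in KO. All MCD libraries lay below all chow libraries, and WT on chow was the tightest group of any member, at 1.03-fold from lowest to highest. Mean FPKM was 1.48-fold lower on the MCD diet in WT (log2 fold change -0.55, SE 0.127, adjusted p = 0.00284) and 1.505-fold lower in KO (-0.58, SE 0.127, adjusted p = 0.00257).

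G0s2, the inhibitor that binds the catalytic domain of Pnpla2, moved the other way. Its gene (ENSMUSG00000009633) lies at chr1:193272161-193273217 on the minus strand and overlaps Lamb3 on the other strand. The FPKM on chow was 37.3, 38.3 and 76.3 in WT and 61.0, 38.7 and 63.9 in KO. In MCD livers it was 141, 399 and 298 in WT and 165, 145 and 93.5 in KO. Every MCD library stood above every chow library, while the genotypes overlapped on both diets. The log2 fold change was 2.40 in WT (SE 0.377, adjusted p = 0.000207) and 1.28 in KO (SE 0.377, adjusted p = 0.0137). The call in KO was lost without KO chow replicate 2 (1.06, adjusted p = 0.0587) or without KO MCD replicate 1 (1.11, adjusted p = 0.0543).

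Pnpla3, a relative of Pnpla2 on the droplet surface, was scarce in these livers. The FPKM on chow was 0.145, 0.129 and 0.306 in WT and 0.546, 0.131 and 0.402 in KO. MCD feeding gave 0.362, 0.295 and 0.159 in WT and 0.310, 0.341 and 0.581 in KO. The genotypes overlapped on each diet and the diets overlapped in each genotype, while WT on chow, at most 0.306, lay just below KO on MCD, at least 0.310. These values stand for about 3.10 to 19.0 fragments a library. In the same fit with no filter on low values its log2 fold change with diet was 0.09 in WT (adjusted p = 0.615) and 0.06 in KO (adjusted p = 0.784). The gene (ENSMUSG00000041653) lies at chr15:84167837-84187236 on the plus strand, where Mir6392, Gm49513 and Gm20369 overlap it.

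The balance of inhibitor and lipase was read as the ratio of their FPKM in each library. G0s2 over Pnpla2 was 0.951, 0.953 and 1.91 in WT and 1.98, 1.07 and 1.64 in KO on chow. With the MCD diet it was 5.42, 15.7 and 10.3 in WT and 8.76, 5.32 and 3.85 in KO. All MCD ratios stood above all chow ratios, and the genotypes overlapped on each diet. Cidec over Cideb was 0.243, 0.267 and 0.365 in WT and 0.0645, 0.149 and 0.121 in KO on chow, and 2.32, 1.32 and 0.741 in WT and 0.601, 0.384 and 0.206 in KO on the MCD diet. That ratio was lower in every KO library than in every WT library of the same diet. Both ratios were formed after the genes had been seen and carry no test.

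**Figure D3:**
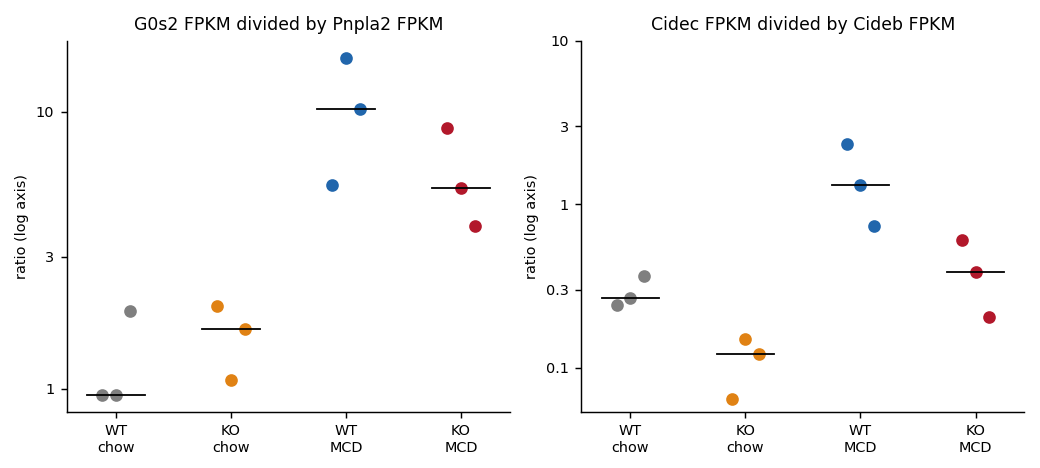
FPKM of G0s2 divided by that of Pnpla2 (left) and of Cidec divided by that of Cideb (right) in each library, on log axes, with a line at the median of 3 mice. On the left the MCD groups lie above the chow groups, and on the right KO also lies below WT on each diet, at 0.0645 to 0.149 against 0.243 to 0.365 on chow.

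The second question was whether the loss of Pctp moved these genes on either diet. With limma 0 of the 8 tested members passed the test on chow and 0 on the MCD diet, where 0.136% and 0.818% of all tested genes did. At an unadjusted p under 0.05 there was 1 member on chow, Cideb, and 2 on the MCD diet, Cidec and G0s2, against 6.98% and 16.3% of all tested genes. With groups of 3 the intervals were wide, and they are given for the members whose genotypes stood furthest apart. The median log2 fold change of the members was 0.04 on chow and -0.23 on the MCD diet, and that of all tested genes was 0.01 and -0.09.

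**Figure D4:**
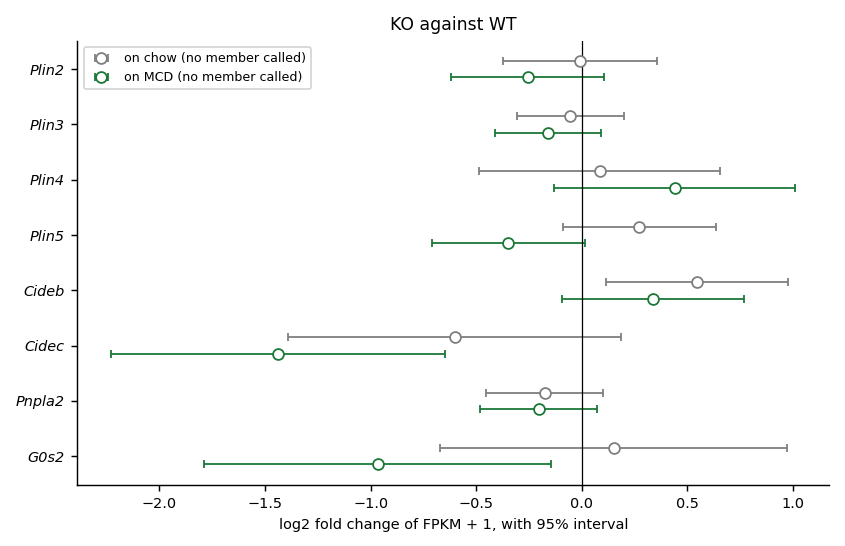
Log2 fold change of FPKM + 1 between KO and WT (horizontal axis) for the 8 tested members on chow (grey) and on the MCD diet (green), with 95% intervals. No member passed the adjusted threshold, and the intervals that leave out 0 are those of Cideb on chow and of Cidec and G0s2 on the MCD diet.

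On chow 3 members had genotypes that did not overlap, Cideb higher and Cidec and Pnpla2 lower in KO, where 10.6% of all tested genes did not overlap, 5.17% higher and 5.38% lower. Cideb was 1.49-fold higher in KO by mean FPKM (log2 fold change 0.55, 95% interval 0.12 to 0.98, unadjusted p = 0.017, adjusted p = 0.521). Mean Cidec was 1.68-fold higher in WT than in KO (-0.60, 95% interval -1.39 to 0.19, adjusted p = 0.82). Pnpla2 had a difference of -0.18 (95% interval -0.45 to 0.10, adjusted p = 0.888). The lowest WT library of Pnpla2, at 39.21 FPKM, lay just above the highest KO library, at 39.04. For Plin2 the difference was -0.01 with an interval of -0.37 to 0.35, and with median-of-ratios scaling its sign turned (0.00098). Plin3 had a difference of -0.05 (-0.31 to 0.20), Plin4 of 0.09 (-0.49 to 0.66), Plin5 of 0.27 (-0.09 to 0.64) and G0s2 of 0.15 (-0.67 to 0.97).

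On the MCD diet Plin5 and Cidec did not overlap between the genotypes, both lower in KO. Of all tested genes 26.6% did not overlap there, 21.1% lower. For Plin5 the gap was small, between 36.43 FPKM in the lowest WT library and 36.28 in the highest KO library. Cidec stood furthest apart, with mean FPKM 3.08-fold higher in WT than in KO (log2 fold change -1.44, SE 0.363, 95% interval -2.23 to -0.65, unadjusted p = 0.00183, adjusted p = 0.0895). Leaving out WT MCD replicate 3, the WT library nearest to KO, brought the adjusted p to 0.018 at a difference of -1.85, and over all alternatives it ranged from 0.018 to 0.256. Mean G0s2 was 2.08-fold higher in WT (-0.97, 95% interval -1.79 to -0.15, adjusted p = 0.233), although 1 WT library at 141 lay within the KO range. Plin5 had a difference of -0.35 (95% interval -0.71 to 0.01, adjusted p = 0.325). For Cideb it was 0.34 (95% interval -0.09 to 0.77, adjusted p = 0.425), and without KO MCD replicate 1, the low library, it was 0.63 with an adjusted p of 0.0436, in a range of 0.0436 to 0.823. Plin2 had a difference of -0.26 (-0.62 to 0.11), Plin3 of -0.16 (-0.41 to 0.09), Plin4 of 0.44 (-0.13 to 1.01) and Pnpla2 of -0.20 (-0.48 to 0.07).

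Whether the diet effect itself differed between the genotypes was tested as the KO effect minus the WT effect. By limma 0 of the 8 members passed, and 1, Plin5, had an unadjusted p under 0.05, against 0.0963% and 15.1% of all tested genes. The difference was -1.12 for G0s2 (95% interval -2.28 to 0.04, adjusted p = 0.347) and -0.84 for Cidec (-1.95 to 0.28, adjusted p = 0.471). It was -0.25 for Plin2, -0.11 for Plin3, 0.35 for Plin4, -0.21 for Cideb and -0.03 for Pnpla2. The sign for Plin3 turned with quantile normalization, and that for Pnpla2 with each of the 3 other scalings. The diet comparisons share their libraries with those of genotype, so their values are not independent of each other.

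Within WT on MCD the libraries kept 1 order for 5 members. Replicate 1 was the highest and replicate 3 the lowest for Plin2, Plin3, Plin4, Cideb and Cidec, while for G0s2 replicate 1 was the lowest. In KO on chow replicate 1 was the lowest for Plin4, Plin5, Cideb, Cidec and Pnpla2, the middle for G0s2 and the highest for Plin2 and Plin3. Its splice-read share was 40.02%, against 34.11 to 37.31% in the other chow libraries. Leaving that library out called 0 members between the genotypes on chow.

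Other genes of droplet biology were read as 4 whole lists, 33 genes of which 30 passed the filter. With diet 57.0% of all tested genes were called in WT, 34.5% higher and 22.5% lower. In KO 50.3% were called, 26.0% higher and 24.4% lower. Of the 30 listed genes 4 rose and 16 fell in WT, and 2 rose and 12 fell in KO. Between the genotypes 0 were called on either diet by limma, with 3 on chow and 4 on the MCD diet at an unadjusted p under 0.05. Of all tested genes 0.136% and 0.818% were called, and 6.98% and 16.3% had an unadjusted p under 0.05. No called direction in these lists turned under 3 other scalings, and of 34 called values 2 were lost, those of Hsd17b11 and Aup1 in KO with quantile normalization.

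**Figure D5:**
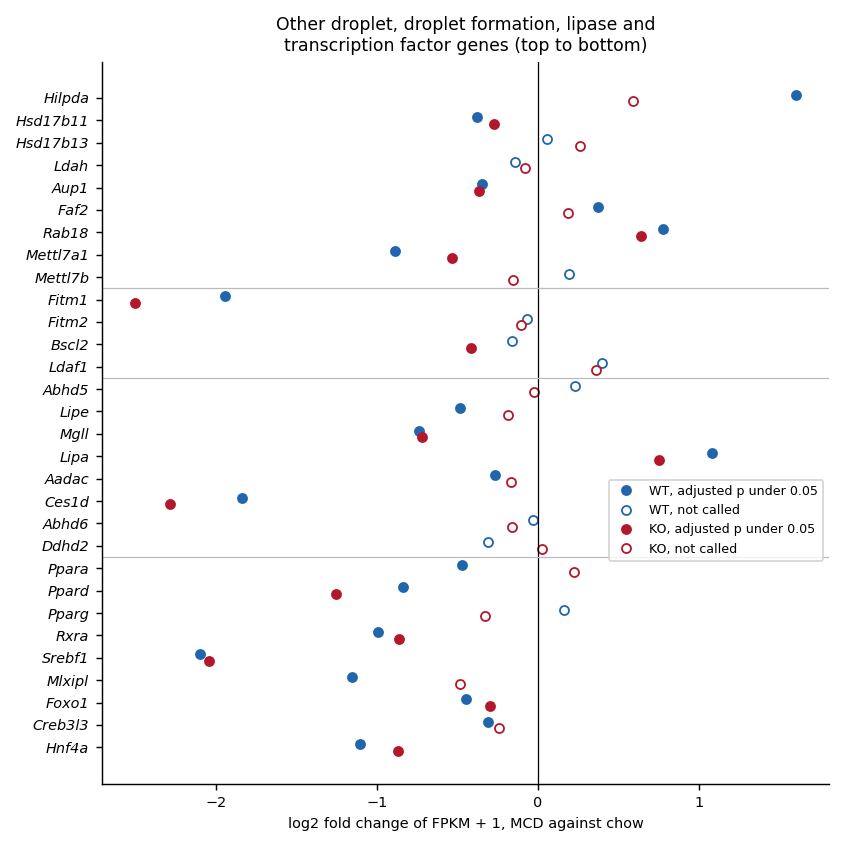
Log2 fold change of FPKM + 1 between the MCD diet and chow (horizontal axis) for the 30 tested genes of the 4 lists in WT (blue) and KO (red), with grey lines between the lists. Filled points have an adjusted p under 0.05, and the transcription factors at the bottom that were called all lie below 0.

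Among 9 tested genes of other droplet proteins, 3 rose and 3 fell in WT and 1 rose and 3 fell in KO, with median log2 fold changes of 0.06 and -0.08. With quantile normalization 3 rose and 1 fell in KO, so the balance in KO depended on the scaling. Of all tested genes as deposited, 34.5% rose and 22.5% fell in WT, and 26.0% and 24.4% in KO. Hilpda, a small droplet protein that also inhibits Pnpla2, rose with a log2 fold change of 1.60 in WT (adjusted p = 0.000111), with 0.685 to 1.46 FPKM on chow and 4.71 to 6.57 after the MCD diet. In KO the chow libraries held 1.09 to 2.18 and the MCD libraries 2.12 to 4.61, with overlap (0.59, adjusted p = 0.051). Its genotypes on MCD did not overlap (-0.69, unadjusted p = 0.0116, adjusted p = 0.171), and the difference of the diet effects was -1.01 (unadjusted p = 0.00928, adjusted p = 0.183). Between the genotypes on MCD 26.6% of all tested genes did not overlap, 21.1% lower. An unadjusted p under 0.05 was held by 16.3% there and by 15.1% for the difference. Rab18, a small GTPase of the droplet surface, rose, with a log2 fold change of 0.78 in WT (adjusted p = 2.73e-05) and 0.64 in KO (adjusted p = 0.000154). Mettl7a1 fell, at -0.89 in WT and -0.54 in KO, and close paralogs make its reads uncertain. Plin1, the perilipin of fat cells, was listed at 0 in 11 of 12 libraries and at 0.0219 FPKM in the other.

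Of the 4 genes of droplet formation at the ER, 1 fell in WT and 2 fell in KO, with medians of -0.12 and -0.26. Among all tested genes 22.5% and 24.4% were called lower. Fitm1, a fat-inducing membrane protein that partitions triglyceride into droplets, had the largest fall of the 4 lists in KO. Its mean FPKM went from 39.3 to 9.48 in WT (log2 fold change -1.94, adjusted p = 4.07e-07) and from 52.5 to 8.52 in KO (-2.50, adjusted p = 8.72e-08).

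Of 8 tested genes among other lipases and the activator, 1 rose and 4 fell in WT and 1 rose and 2 fell in KO, with medians of -0.29 and -0.17. Among all tested genes 34.5% rose and 22.5% fell in WT, and 26.0% and 24.4% in KO. Abhd5, the activator of Pnpla2, did not pass the test, at 0.23 in WT (adjusted p = 0.131) and -0.02 in KO (adjusted p = 0.888). Lipa, the acid lipase of the lysosome, rose, at 1.08 in WT (adjusted p = 5.21e-05) and 0.75 in KO (adjusted p = 0.000876). Ces1d, a carboxylesterase of the ER with close paralogs, fell, at -1.84 in WT (adjusted p = 1.3e-05) and -2.29 in KO (adjusted p = 3.35e-06). Mgll, which takes the last fatty acid from monoglyceride, fell, at -0.74 in WT (adjusted p = 0.000139) and -0.72 in KO (adjusted p = 0.000208).

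Of the 9 transcription factors, 8 fell in WT and 5 fell in KO, with medians of -0.84 and -0.49. Among all tested genes 22.5% were called lower in WT and 24.4% in KO. Srebf1, the activator of lipid synthesis genes, fell, at -2.10 in WT (adjusted p = 8.34e-06) and -2.04 in KO (adjusted p = 1.37e-05). Ppard, a nuclear receptor for fatty acids, fell at -0.84 in WT and -1.26 in KO, its partner Rxra at -0.996 and -0.86, and the hepatocyte factor Hnf4a at -1.10 and -0.87. Mlxipl, the carbohydrate response factor, fell in WT, at -1.16 (adjusted p = 0.0097), and had -0.49 in KO (adjusted p = 0.237). Its KO chow libraries were widely spread, at 67.5, 194.6 and 211.5 FPKM, against 95.1 to 108.7 in KO on MCD. The difference of its diet effects was 0.67 (adjusted p = 0.524) and did not pass the test. Pparg, a known activator of Cidec and Plin4 in fat cells, did not pass the test with diet, at 0.16 in WT and -0.33 in KO. On the MCD diet its log2 difference of KO against WT was -0.55 (unadjusted p = 0.0113, adjusted p = 0.17), without overlap. There 26.6% of all tested genes did not overlap, 21.1% lower, and 16.3% had an unadjusted p under 0.05. Ppara, another receptor of the list, went the other way on MCD, at 0.38 for KO against WT (adjusted p = 0.338), also without overlap. A link between either receptor and Cidec was not tested.

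The genes nearest in pattern to the 3 members of widest range were found by the root mean square difference of centred log2(FPKM + 1) over the 12 libraries. For Cidec, whose group means ranged over 3.51 on that scale, they were Smoc2 at 0.348, 2010003K11Rik at 0.390 and Cgref1 at 0.395. For G0s2, with a range of 2.40, they were Leap2 at 0.339, Gpat3 at 0.406 and Marco at 0.432. For Plin4, with a range of 1.86, they were Gm16116 at 0.291, Slc16a7 at 0.291 and Morc4 at 0.305.

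Some markers of other cells rose with the diet alongside the droplet genes, most of them in the macrophage and stellate cell lists. Of all tested genes 34.5% were called higher and 22.5% lower in WT, and 26.0% and 24.4% in KO. The marker counts here and below are to be read against these shares. The summed FPKM of 6 macrophage markers lay between 53.6 and 144 in the chow libraries, 260 to 566 in WT on MCD and 292 to 379 in KO on MCD, and 6 of the 6 rose in WT and 3 in KO. The highest sum was in WT MCD replicate 1, the highest library of its group for Plin2 and Cidec but the lowest for G0s2. In KO on MCD replicate 1 had the highest sum, while Plin2 and Cidec were highest in replicate 2. In KO on chow replicate 1 had the highest sum and the lowest Cidec. For 6 stellate cell markers the chow sums lay between 28.7 and 51.6 and the MCD sums between 129 and 182, and 4 rose in WT and 3 in KO. The 6 adipocyte markers summed to between 4.84 and 6.28 in chow libraries and between 10.8 and 20.9 in MCD libraries, nearly all of it Fabp4, the 1 tested gene of the list, which rose in both genotypes. Lep was at 0 in every library and Adipoq at most at 0.0651, and Retn, Plin1 and Cfd were at or near 0.

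Of the 5 hepatocyte markers 1 rose and 3 fell in each genotype. Of 4 endothelial markers 1 rose in WT and 0 changed in KO, with sums between 36.2 and 53.4 in chow libraries and between 44.4 and 59.7 in MCD libraries. Of 3 tested cholangiocyte markers 1 fell in KO, with sums over 4 genes between 3.29 and 8.66 and between 2.54 and 3.73, and of 2 tested lymphocyte markers 1 rose in each genotype, with sums over 3 genes between 0.915 and 3.33 and between 3.40 and 6.90. No marker of any list was called between the genotypes on either diet, where 0.136% of all tested genes were called on chow and 0.818% on MCD. The part of these cells in the diet effects on the droplet genes was not tested.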

How the data were processed

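Hepatic RNA was sequenced in 12 libraries, 1 for each mouse, and samples were grouped by the genotype and diet in the labels, which number 3 biological replicates in each of 4 groups. Per gene and mouse the authors deposited FPKM, not counts, so the Wald test on counts named by the study was replaced by limma 3.58.1 in R 4.3.3 on log2(FPKM + 1). The processing notes name genome build mm10, while the aligner, the counting tool and the annotation are not given in the sources used here. A second deposited table gave read totals and mapping percentages.

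Genes with a mean of at least 0.5 FPKM were fitted with 1 mean per group and a mean-variance trend, with two-sided tests and Benjamini-Hochberg adjustment over all 12466 genes. Of 35275 IDs 34490 had a symbol in GENCODE M21. In simulated data 85.5% of 200 genes with a log2 change of 1 for the diet in WT were recovered among 12466, with 6.56% false calls. All members were named, and of the other lists Abhd5, Pparg, Plin1 and the 12 called genes with the largest changes. Ppara was named beside Pparg because its genotype difference on MCD went the other way. Genes nearest in pattern were listed for the 3 members of widest range. The members and lists were chosen with earlier results of these data known. The members were read in their RefSeq promoter windows without Cidea. Alternatives covered the pseudocount, the filter, scaling, the libraries fitted, the block, the trend, robust fitting, a minimum fold and leaving out each library. No 2 libraries held identical values, and depths ranged from 30486576 to 55179468 uniquely mapped reads. Figures were drawn with matplotlib 3.10.9.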

Additional observations from a re-analysis of the deposited data

How the results depend on the processing

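Of 907 values of a member under an alternative, 882 kept their direction and their side of the threshold, 19 reversed, 4 lost and 2 gained a call. For part of these the direction could not turn. The log2 fold change stays the same without a library outside the groups compared. It also stays the same without the trend, with robust fitting, with the block or with only the libraries compared. Of the 15 called values 0 reversed, and 13 were called under all alternatives other than a minimum fold change. A minimum absolute log2 fold change of 1 left 4 of 8 members called with diet in WT and 3 of 8 in KO. Leaving out 1 library gave 7 to 8 called members for the diet in WT, 6 to 7 in KO, 0 to 0 for genotype on chow, 0 to 1 on MCD, where Cidec was called without WT MCD replicate 3 and Cideb without KO MCD replicate 1, and 0 to 0 for the difference of the diet effects.

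None of the reversed values had been called. Plin2 between the genotypes on chow was 0.00098 with median-of-ratios scaling and -0.13 to 0.0838 without 1 library. The difference of the diet effects for Plin3 was 0.0175 with quantile normalization and -0.19 to 0.0108 without 1 library, and for Pnpla2 it was 0.0106 with a common total, 0.0696 with median-of-ratios scaling, 0.11 with quantile normalization and -0.14 to 0.12 without 1 library. Without 1 library the diet effect on Plin5 in KO ranged from -0.23 to 0.0790, the difference of the diet effects for Cideb from -0.37 to 0.0855, and the genotype difference on chow from -0.13 to 0.34 for Plin4 and from -0.0239 to 0.48 for G0s2. The causes were not tested. Plin4 has no value with a minimum mean of 5 FPKM, since it lies below it.

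With the replicate number as a block the called members stayed at 8, 7, 0, 0 and 0, and the called genes for the difference of the diet effects went from 12 to 59 and for genotype on chow from 17 to 32. The labels number biological replicates and do not say that a number pairs mice, so the numbers were not used in the main fit. The deviations of same-numbered libraries correlated at -0.0972 to 0.225, and 8 of 18 such pairs were over 0.1. In 21 of 36 cases a library correlated best with its own number in another group, where each group offered 3 libraries to match. Whether the numbers mark pairs or a batch was not tested.

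Over all genes the calls ranged from 1777 to 7702 for the diet in WT (7110 as reported), 1343 to 6589 in KO (6276), 4 to 34 for genotype on chow (17), 19 to 173 on MCD (102) and 0 to 60 for the difference (12). The median log2 fold change of all genes with diet in WT moved from 0.11 to 0.01 with median-of-ratios scaling, while 60.5% of the called genes were higher as deposited, 50.8% with that scaling and 51.6% with quantile normalization. On MCD 36.3% of the genes called between genotypes were higher in KO as deposited, 49.3% and 62.7% with those scalings, and of the genes called for the difference 41.7%, 83.3% and 72.2%. On chow 41.2% were higher in KO as deposited, 30% with a common total. The number of mice and FPKM without counts limit the precision. The p-values rest on the spread between these mice only, shared over the 4 groups and drawn towards a trend over all tested genes.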
